A study of Mus musculus with 4 samples.

Results

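Macrophage cluster 7 was the group of mouse lavage cells that the authors' deposited annotation called proliferating and placed among the alveolar macrophages. Its members were the cells with that refined cluster name and the coarse type alveolar macrophage. They numbered 571 of the 9925 cells in the series, after 1 of the 572 cells of the refined cluster was left out because its coarse type was epithelial. The control library held 241 of them, the APM library 306, and the HDM and HDM+APM libraries 12 each.

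The cells came from the airspaces of C57BL/6 mice, washed out with saline in 5 lavages per mouse. The control group breathed filtered air and received intranasal saline (PBS). The HDM group breathed filtered air and received house dust mite (HDM), an allergen, at 10 µg by the same route. The APM group breathed aerosolized Afghanistan particulate matter (APM), a dust, at 5 mg/m3 for 6 hours on each of 12 days, and received saline. The HDM+APM group received both. Sensitization started 9 days after the dust ended, with doses on study days 22 and 29. The airway was challenged again on days 36, 37 and 38, and cells were collected on day 39. Mice kept on filtered air went through the same instillation days. Each group was 1 library made from the pooled cells of 7 mice, so no value below carries an error between animals, no difference between groups was tested, and every interval covers counting error only. Cells had 60 to 80% viability before capture with the 10x Genomics 3' v2 kit.

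Alveolar macrophages live in the airspace, clear particles and surfactant, and are known to renew themselves locally by division rather than only from blood monocytes. A dividing cell first licenses its replication origins and copies its DNA in S phase, for which it makes MCM helicase subunits, ribonucleotide reductase and replication-fork proteins. It then builds cyclins, kinesins and kinetochore proteins for G2 and mitosis. S phase genes are classically driven by E2F factors, and many G2/M genes by the DREAM and MuvB complexes through promoter elements called the CHR and, with the factor NF-Y, the CCAAT box.

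Promoters of 5 genes are shown because these genes mark the cluster or separate it from cluster 10, the other cluster with mitotic genes. Rrm2 (a ribonucleotide reductase subunit) and Mcm5 (a subunit of the replicative helicase) had UMIs in cluster 7 and none in cluster 10. Top2a (topoisomerase that untangles replicated chromosomes) and Cdk1 (the mitotic kinase) were high in cluster 7, and Ccnb2 (a mitotic cyclin) was higher in cluster 10. Each line gives the 250 bases before the RefSeq start of the gene in GRCm38.p6, 5′ to 3′ on the gene's own strand. Capitals mark exact matches, on either strand, to the CHR (TTTGAA or TTCGAA), the CCAAT box (CCAAT) or an E2F site (TTGGCGC or TTCCCGC).
Rrm2 (chr12:24708004-24708253, plus strand): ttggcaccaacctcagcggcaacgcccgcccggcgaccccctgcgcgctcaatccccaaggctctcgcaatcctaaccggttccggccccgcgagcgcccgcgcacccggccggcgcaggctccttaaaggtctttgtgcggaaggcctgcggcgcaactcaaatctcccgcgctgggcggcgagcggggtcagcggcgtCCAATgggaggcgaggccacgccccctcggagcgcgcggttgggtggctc
Mcm5 (chr8:75109259-75109508, plus strand): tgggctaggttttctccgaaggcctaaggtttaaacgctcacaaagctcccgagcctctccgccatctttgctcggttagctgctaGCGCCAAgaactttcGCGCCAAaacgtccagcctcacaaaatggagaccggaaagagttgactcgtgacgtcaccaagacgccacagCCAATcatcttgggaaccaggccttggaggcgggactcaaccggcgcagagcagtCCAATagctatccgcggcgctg
Top2a (chr11:99024190-99024439, minus strand): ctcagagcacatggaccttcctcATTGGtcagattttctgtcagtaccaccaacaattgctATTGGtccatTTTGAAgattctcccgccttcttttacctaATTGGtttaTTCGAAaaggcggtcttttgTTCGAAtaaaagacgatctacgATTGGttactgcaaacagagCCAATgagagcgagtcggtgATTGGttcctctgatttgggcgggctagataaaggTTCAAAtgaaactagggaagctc
Cdk1 (chr10:69352913-69353162, minus strand): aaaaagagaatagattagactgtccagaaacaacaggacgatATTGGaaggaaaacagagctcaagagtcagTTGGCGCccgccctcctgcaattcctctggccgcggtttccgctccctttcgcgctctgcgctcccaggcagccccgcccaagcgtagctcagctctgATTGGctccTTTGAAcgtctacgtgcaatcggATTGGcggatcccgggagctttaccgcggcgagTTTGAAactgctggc
Ccnb2 (chr9:70421555-70421804, minus strand): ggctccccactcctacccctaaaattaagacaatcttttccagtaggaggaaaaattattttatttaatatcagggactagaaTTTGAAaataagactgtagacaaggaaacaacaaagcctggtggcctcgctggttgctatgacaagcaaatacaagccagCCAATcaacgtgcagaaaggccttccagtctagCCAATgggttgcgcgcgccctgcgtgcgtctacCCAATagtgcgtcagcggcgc

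Matches in these windows are descriptions of letters, not of binding. The Mcm5 window held 2 E2F matches, 2 CCAAT boxes and 0 CHR matches. The Top2a window held 4 CHR matches, 6 CCAAT boxes and 0 E2F matches. The Cdk1 window held 2 CHR matches, 3 CCAAT boxes and 1 E2F match, the Ccnb2 window 1, 3 and 0 in the same order, and the Rrm2 window a single CCAAT box. None of the marked matches overlapped another. Among genes with a single promoter window in the RefSeq table, the E2F letters stood in 44.4% of the 27 windows of the S phase list and in 11.6% of the 43 windows of the G2/M list, beside 10.3% of the 8588 windows of genes in the count matrix, whose 13838 genes matched 10738 symbols of the table. CHR letters showed the opposite pattern, with 14.8%, 44.2% and 12.9% of the same windows. CCAAT boxes stood in 74.1%, 74.4% and 37.5% of them. Over all 22862 genes with a single window, the shares were 5.63% for E2F, 17.9% for CHR and 34.7% for CCAAT.

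The label was set beside the levels of Top2a, Rrm2 and Stmn1 (stathmin, which frees microtubules for the spindle). Levels are given in CPM, the unique molecular identifiers (UMIs, 1 per captured transcript) of a gene per 1000000 UMIs of the class. Top2a stood at 521 CPM in cluster 7 of the control library, 735 in HDM, 519.5 in APM and 766 in HDM+APM. Rrm2 stood at 314, 633, 299.9 and 537 CPM in the same order, and Stmn1 at 1177, 992, 1584 and 1178 CPM. In alveolar macrophage clusters 1 to 6 and 9 together, the same genes stood at 15.4 (Top2a), 7.37 (Rrm2) and 75.3 CPM (Stmn1) in control and at 10.5, 3.74 and 72.1 CPM in APM. The 3 markers were thus far higher in cluster 7 in the control and APM libraries. At least 1 of them had a UMI in 216 of 241 control cells (89.6%) and 286 of 306 APM cells (93.5%) of cluster 7, beside 980 of 3525 (27.8%) and 614 of 3147 (19.5%) in clusters 1 to 6 and 9. All 3 had a UMI in 50.2% and 43.1% of the cluster's cells, and in 6 and 2 cells of the comparison clusters. The cluster is named for proliferation and these genes are among its leading ones, so the contrast is a description and no check of the label.

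Each cell was also thinned to 2000 UMIs, so that shares could be compared at 1 depth. The median cell of cluster 7 held 4102 UMIs and 1755 genes in control and 3637 UMIs and 1610.5 genes in APM. Over all cells of clusters 1 to 6 and 9 the medians were lower, at 3436 and 2645 UMIs. High depth was not particular to cluster 7. Clusters 3, 5 and 9 had higher medians, at 5619, 4563 and 5052.5 UMIs in control and 5082, 4320.5 and 4123.5 in APM. Clusters 1, 2, 4 and 6 had lower medians than cluster 7 in both libraries. After thinning, at least 1 marker was seen in 85.3% of the control and 90.3% of the APM cells of cluster 7, beside 16.3% and 14% of the comparison cells. All 3 were seen in 25.6% and 23.3% of the thinned cluster 7 cells, fewer than as deposited. Thinned Top2a was seen in 50% and 51.3% of the cluster's cells (73.0% and 67.0% unthinned) and in 3.03% and 1.75% of the comparison cells (5.19% and 2.89% unthinned). Of 42 barcodes present in more than 1 library, 3 of the cells carrying them were in cluster 7. Doublets were not called, and all deposited cells were kept.

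The cells also carried the identity genes of alveolar macrophages, most of them at levels near those of the other clusters and some lower. Genes were called higher or lower by the 1.5-fold rule given below. By that rule 9.71% of all genes were higher and 1.87% lower in control, and 9.38% and 2.03% in APM. Of 34 measured alveolar macrophage markers, 1 was higher and 3 were lower in cluster 7 than in clusters 1 to 6 and 9 in control. In APM these counts were 0 and 3, and the median log2 ratios were −0.03 in control and −0.17 in APM. Summed, the list stood at 31002 CPM in cluster 7 and 37423 CPM in the comparison clusters of control, and at 28918 and 35053 CPM in APM. Among its lower members, Fabp5 stood at 1499 and 3096 CPM in control and 1061 and 1839 CPM in APM. Fabp4 and Cd36, also on the list, were lower in both libraries, as given below. Chil3 (a chitinase-like protein) stood at 7059 CPM in cluster 7 and 6689 CPM in the comparison clusters of control, and at 6638 and 7056 CPM in APM. Itgax (CD11c) stood at 394 and 401 CPM in control and 339.7 and 363 CPM in APM. Marco (a scavenger receptor for particles) stood at 372 and 299 CPM in control and 442 and 404 CPM in APM, and Pparg (a regulator of this identity) at 47.9 and 38.3 CPM, then 53.9 and 48.3 CPM. Markers of T and NK cells had 0 UMIs in cluster 7 of control and 2 UMIs in APM, over 16 genes. B cell, granulocyte and dendritic cell lists summed to 26.3, 92.1 and 166 CPM in control and to 16.6, 128 and 159.9 CPM in APM, close to the 29.5, 99.8 and 149 CPM and the 24.4, 155 and 138 CPM of the comparison clusters. Monocyte-derived macrophage markers summed to 1773 CPM in cluster 7 and 2213 CPM in the comparison clusters of control, and to 1799 and 1984 CPM in APM. Monocyte markers, a list that also holds Chil3, summed to 7330 and 6897 CPM in control and to 6880 and 7263 CPM in APM.

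The cluster made up 6.21% of alveolar macrophages in control (interval 5.47 to 7.01) and 8.28% in APM (7.41 to 9.21), a ratio of 1.33 (1.12 to 1.59). Of all lavage cells it was 6.15% in control, 1.21% in HDM, 7.87% in APM and 1.07% in HDM+APM. Alveolar macrophages themselves were 3882 of 3918 cells in control and 3697 of 3890 in APM, but 199 of 994 in HDM and 155 of 1123 in HDM+APM. Within alveolar macrophages the HDM share was 6.03% (3.15 to 10.3) and the HDM+APM share 7.74% (4.06 to 13.1), so both intervals held the control and APM shares. Those denominators contain cluster 8, another deposited cluster of alveolar macrophages, which was 139 of the 199 cells in HDM and 109 of the 155 in HDM+APM. Without cluster 8 the shares were 6.38% in control, 20% (12 of 60 cells, 10.8 to 32.3) in HDM, 8.76% in APM and 26.1% (12 of 46 cells, 14.3 to 41.1) in HDM+APM. A share is set by the other cells as well as by the cluster, and with 1 pool per group the spread between animals is unknown.

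**Figure D1:**
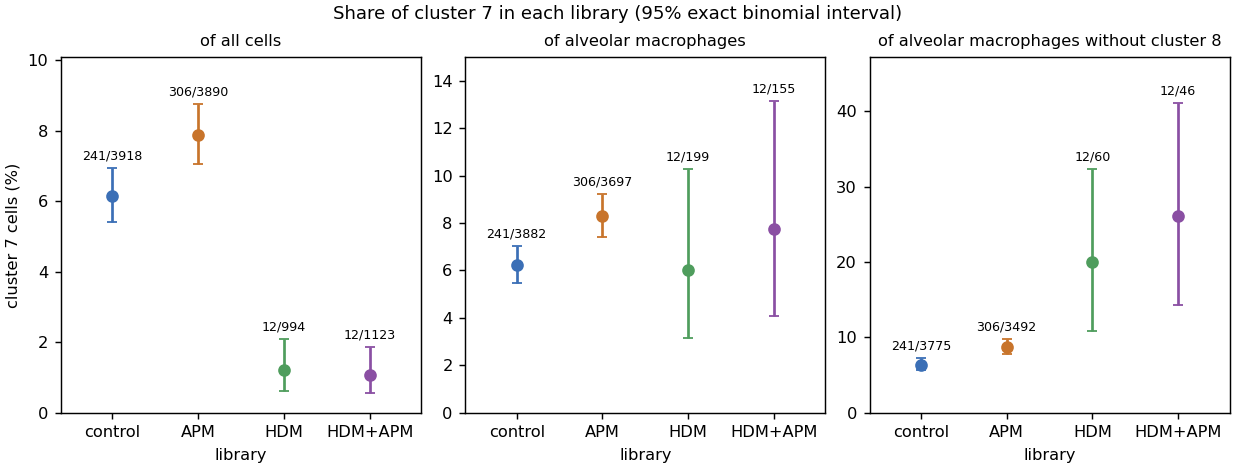
Share of cluster 7 cells (y axis, percent) in each library (x axis), of all cells, of alveolar macrophages and of alveolar macrophages without cluster 8, in panels with different y ranges; points are shares, bars 95% exact binomial intervals for counting error, and labels the cell counts. Of alveolar macrophages the 4 libraries lie between 6.03% and 8.28%; without cluster 8 the HDM libraries, with 12 cells of the cluster each, stand at 20% and 26.1%.

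Compared with clusters 1 to 6 and 9, cluster 7 had higher levels of most measured cell cycle genes. A gene was measured with at least 20 UMIs over both classes and called at a ratio of 1.5-fold or more after adding 10 CPM to each side; log2 ratios below use the same addition, while folds given with intervals are plain CPM ratios. In control, 1003 of 10330 genes (9.71%) were called higher and 193 (1.87%) lower. In APM, 936 of 9980 (9.38%) were called higher and 203 (2.03%) lower. Scaled to the median gene instead of the total, the control counts were 772 higher and 310 lower. The median over all genes was 0.07 (log2) in control and 0.04 in APM. In both libraries 691 genes were higher, 68.9% of the control calls and 73.8% of the APM calls, and 277 of these (40.1%) belonged to the cell cycle lists. Conversely, of 316 cell cycle genes measured in both libraries, 277 (87.7%) were higher in both and 3 were lower in both. The comparison clusters had another make-up in each library: clusters 1 and 3 held 1360 and 906 of the 3525 cells in control, and clusters 4 and 6 held 1029 and 688 of the 3147 in APM. The cluster comes from the expression of these cells, so the counts describe it and test nothing.

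The genes highest over the comparison clusters in both libraries came from S phase and mitosis alike. The highest was 2810417H13Rik (Pclaf, a PCNA-binding factor of the replication fork), at 633 against 9.24 CPM in control, a ratio of 68.4 (56.6 to 83.3), and at 872 against 7.69 CPM in APM, a ratio of 113 (89.3 to 146). Top2a was 33.9-fold (28.9 to 39.8) and 49.6-fold (40.1 to 62.0) higher. Rrm2 was 42.6-fold (34.1 to 53.7) and 80.2-fold (56.6 to 117) higher, and Stmn1 15.6-fold (14.4 to 17) and 22.0-fold (20.1 to 24.0). Hist1h2ap, a replication-linked histone H2A gene with near-identical copies that make its count uncertain, stood at 671 against 25.3 CPM in control and 691 against 16.2 CPM in APM. On GRCm38, Pclaf lies at chr9:65890237-65903266, Top2a at chr11:98992943-99024189, Rrm2 at chr12:24708241-24714146 and Stmn1 at chr4:134468320-134473843. Ccna2, the cyclin of S and G2, stood at 158 against 2.60 CPM and 145 against 1.92 CPM. Ccne2, the cyclin of S phase entry, stood at 140.1 against 2.60 CPM in control and 158 against 5.02 CPM in APM. Mki67, the Ki-67 proliferation antigen, stood at 161 against 7.44 CPM in control and 199.7 against 5.98 CPM in APM.

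Most genes of DNA replication were higher in cluster 7. All 43 measured S phase genes were higher in control, with a median log2 ratio of 1.96, and all 42 in APM, with a median of 2.19. All 19 measured replication licensing genes were higher in each library (medians 1.87 and 1.96), among them Mcm5 at 123 against 9.61 CPM in control and 133 against 10.1 CPM in APM. Mcm2 stood at 97.8 against 8.23 CPM in control, and Mcm7 at 179 against 17.4 CPM. Of 29 DNA synthesis genes, 27 were higher in control and 28 in APM; Pcna, the sliding clamp, stood at 670.2 against 108 CPM in control, and Lig1, which seals Okazaki fragments, at 195.5 against 13.7 CPM. Nucleotide synthesis was less complete, with 18 of 27 genes higher in each library. Its leading members were Rrm2, Rrm1 (252 against 21.5 CPM in control), Tk1 (thymidine kinase, 105 against 4.48 CPM) and Dut (dUTPase, 221 against 22.9 CPM). Proteins that rebuild and methylate chromatin behind the fork were higher in 23 of 23 and 22 of 22 cases; Uhrf1, which guides maintenance methylation, stood at 156 against 7.80 CPM in control and 148 against 5.66 CPM in APM.

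The G2 and mitotic side was equally broad. Of the G2/M list, 51 of 52 genes were higher in control and 52 of 53 in APM (medians 1.82 and 1.97). Mitotic cyclins and kinases were higher for 21 of 23 and 23 of 23 genes, spindle genes and kinesins for 33 of 35 and 33 of 34, and centromere and kinetochore genes for 33 of 33 in both. Cdk1 stood at 209.6 against 11.6 CPM in control and 181 against 7.58 CPM in APM. Birc5 (survivin, of the chromosomal passenger complex) stood at 264 against 19.1 CPM and 332 against 11.3 CPM, and Nusap1 (a spindle protein) at 185 against 6.36 CPM in control. Ccnb2 stood at 116 against 3.68 CPM in control and 139 against 3.85 CPM in APM. Chromosome condensation and cohesion genes were higher for 19 of 21 in each library, and anaphase promoting complex and cytokinesis genes for 19 of 22 and 18 of 22, with Ube2c, a ubiquitin carrier of that complex, at 162 against 9.17 CPM in control. DNA repair and checkpoint genes were higher for 29 of 34 and 28 of 33.

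**Figure D2:**
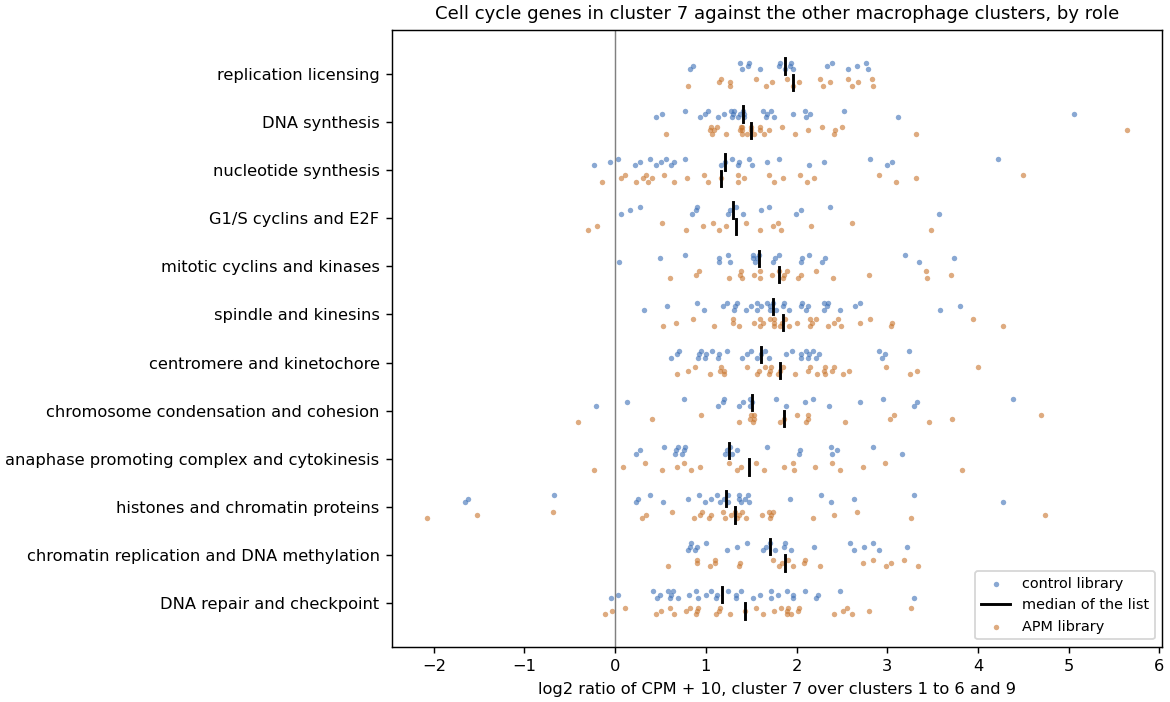
Log2 ratio of cluster 7 over clusters 1 to 6 and 9, with 10 CPM added to each side, for the measured genes of 12 cell cycle lists by role in the control and APM libraries; each point is a gene, offset for visibility, and black bars are list medians. All medians shown lie above 1, from 1.17 for nucleotide synthesis in APM to 1.96 for replication licensing in APM, and 3 histone genes lie below 0 in each library.

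Histone and chromatin protein genes were mostly higher, Hist1h2ap (given above) among them, and a few were lower. Of 28 histone and chromatin protein genes 21 were higher and 3 lower in control, and of 29 in APM 24 and 3. Hmgb2, a chromatin protein of dividing cells, stood at 948 against 87.3 CPM in control and 1146 against 111 CPM in APM. H2afz, a replacement histone, stood at 2524 against 971 CPM in control and 3376 against 1094 CPM in APM. The members lower in both libraries were Hist1h2bc, Hist1h1c and Hist2h3c1. Hist1h2bc stood at 94.9 against 312 CPM in control (3.29-fold lower, 2.70 to 4.05) and 60.5 against 287 CPM in APM (4.74-fold lower, 3.76 to 6.06). Hist1h1c stood at 40.4 against 149 CPM and 25.7 against 92.4 CPM. Replication-linked histone messages mostly lack the poly(A) tail that the kit captures, so the histone values cover only part of that family.

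Cyclins of cycle entry were mostly higher, and the inhibitors were mixed. Of 16 G1/S cyclin and E2F genes 13 were higher in each library; E2f8, an E2F repressor made in S phase, stood at 44.2 against 0.506 CPM in control and 56.3 against 0.855 CPM in APM. Among all genes 9.71% were higher and 1.87% lower in control, and 9.38% and 2.03% in APM. Of the cell cycle inhibitors 5 of 30 were higher and 3 lower in control, and 7 of 29 and 3 in APM. Cdkn1a (p21) was among those higher, at 329 against 87.8 CPM in control (3.75-fold, 3.32 to 4.22) and 365 against 152 CPM in APM. After thinning, a UMI of Cdkn1a was present in 43.3% of the control and 45% of the APM cells of the cluster (63.1% and 61.1% unthinned), beside 13.5% and 21.5% of the comparison cells (22.4% and 27.8% unthinned). Cdkn2c (p18, an inhibitor of Cdk4 and Cdk6) stood at 43.2 against 3.18 CPM in control and 69.6 against 3.10 CPM in APM. Growth factor receptors and self-renewal regulators gave few calls, with 1 of 42 higher and 2 lower in control and 0 of 39 and 1 in APM (medians −0.07 and −0.06). Csf2ra, a chain of the GM-CSF receptor, stood at 91.2 against 142 CPM in control and 89.5 against 118 CPM in APM. Csf1r, the M-CSF receptor, stood at 82.7 against 100.8 CPM in control and 60.5 against 82.0 CPM in APM.

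Beyond the cell cycle, splicing genes were the other list with many members higher. Of 39 mRNA splicing genes 21 were higher in control and 26 in APM (medians 0.68 and 0.73), and none was lower. Snrpd1, a core small nuclear ribonucleoprotein, stood at 289.5 against 109.6 CPM in control and 339.7 against 134 CPM in APM. Hnrnpab stood at 659 against 266 CPM and 601 against 226 CPM. Ribosome production did not share this pattern: 4 of 47 ribosome biogenesis genes were higher in each library and 0 of 79 cytosolic ribosomal protein genes. Higher calls made up 9.71% of all genes in control and 9.38% in APM. The biogenesis share was near these values and the splicing share well above them. Nop56, a nucleolar protein, was one of the biogenesis genes higher in both, at 57.3 against 33.4 CPM in control and 84.5 against 29.5 CPM in APM. Nuclear genes of the respiratory chain were called in 0 of 44 cases in either library.

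Some lysosome genes and targets of oxidative defence stood lower in cluster 7. Over all genes 1.87% were lower in control and 2.03% in APM, and 9.71% and 9.38% higher. Of 31 lysosome genes 0 were higher and 5 lower in control, and 6 lower in APM (medians −0.35 and −0.37). Of 23 targets of Nrf2, the regulator of oxidative defence, 10 were lower and 1 higher in control, and 8 and 0 in APM. Gstm1, a glutathione transferase, stood at 725 against 1270.3 CPM in control and 476 against 836 CPM in APM. Slc7a11, the cystine importer, stood at 151 against 342 CPM in control (2.26-fold lower, 1.93 to 2.66) and 84.5 against 187.5 CPM in APM (2.22-fold lower, 1.82 to 2.74). The ferritin chains that store iron followed, with Fth1 at 26682 against 45332 CPM in control and 21151 against 34030 CPM in APM, and Ftl1 at 31093 against 49822 CPM and 24667 against 38774 CPM. Metallothionein and metal transport genes were lower for 4 of 12 and 3 of 12 genes, and cholesterol synthesis genes for 2 of 23 and 3 of 23.

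Outside the histones, the lowest ratios over both libraries among genes at 50 CPM or more were those of Cd63, Slc7a11 and H2-T23. Cd63, a tetraspanin of late endosomes, stood at 257 against 796 CPM in control (3.10-fold lower, 2.75 to 3.51) and 279 against 710.0 CPM in APM (2.54-fold lower, 2.28 to 2.85). H2-T23, a nonclassical MHC class I gene, stood at 39.5 against 91.3 CPM in control and 38.9 against 84.7 CPM in APM. Gpnmb, a lysosomal glycoprotein of lipid-laden macrophages, stood at 285 against 511 CPM in control and 189.7 against 376 CPM in APM. Cstb, an inhibitor of cathepsins, stood at 1105 against 2234 CPM and 1154 against 2047 CPM. Lower calls made up 1.87% of all genes in control and 2.03% in APM. Of 35 genes for lipid uptake, storage and oxidation, 3 were lower and 1 higher in control and 4 and 1 in APM. The fatty acid binding proteins were among them: Fabp4 stood at 416 against 909 CPM in control and 366 against 619 CPM in APM, and Fabp5 at 1499 against 3096 CPM and 1061 against 1839 CPM. Phagocytosis and scavenger receptors were lower for 4 of 23 and 3 of 23 genes, with Cd36, a receptor for oxidized lipid, at 182 against 286 CPM in control and 171 against 319 CPM in APM. CPM sum to the same total in each class, so a difference in some genes moves the CPM of others by construction. The median gene stood slightly higher in cluster 7 (log2 ratio 0.07 in control and 0.04 in APM). Scaled to the median gene, the lower calls rose from 193 to 310 in control and from 203 to 249 in APM.

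**Figure D3:**
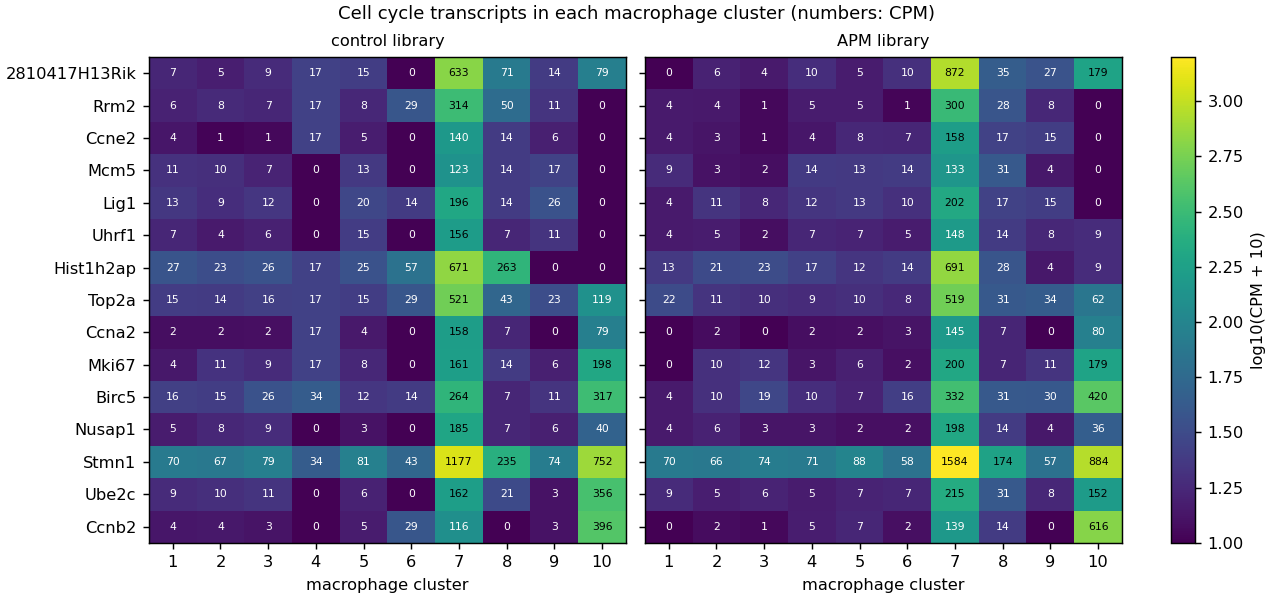
Level of 15 genes, as log10(CPM + 10) by color with the CPM printed, in alveolar macrophage clusters 1 to 10 of the control and APM libraries. Top2a, Rrm2 and Stmn1 are highest in cluster 7, and in cluster 10 Rrm2 reads 0 while Ccnb2 reads 396 CPM in control and 616 CPM in APM.

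Single cells of the cluster held S phase and G2/M transcripts in varying proportions. After thinning to 2000 UMIs, a cluster 7 cell held a median of 8 UMIs of S phase genes (quartiles 5 to 12) and 11 of G2/M genes (6 to 17.75) in control, and 9 (6 to 14) and 12 (6 to 21) in APM. Cells of clusters 1 to 6 and 9 held medians of 1 and 2. In control 98 of 238 cells (41.2%) held more S than G2/M UMIs and 121 (50.8%) the reverse, and in APM 128 of 300 (42.7%) and 162 (54%). Both kinds were thus present in similar proportions in the 2 libraries. In clusters 1 to 6 and 9, 66.0% of control and 64.6% of APM cells held more G2/M UMIs, and 16.1% and 17.6% more S UMIs. An excess of G2/M over S UMIs therefore does not by itself place a cell in G2 or mitosis. The split is not sharp, since 60 and 65 cells differed by at most 2 UMIs, and the lists differ in size, with 43 S phase and 54 G2/M genes. A combined count of 10 UMIs is the 10th percentile of the cluster's cells, and it was reached by 67 of 3233 (2.07%) and 37 of 2517 (1.47%) comparison cells of control and APM.

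Cells with more G2/M UMIs were also deeper. Before thinning they held a median of 4739 UMIs in control and 4093 in APM, beside 3657.5 and 3204.5 in cells with more S UMIs. Rrm2 and Ccnb2, genes of an early and a late phase, were also seen together: in control 72 thinned cells held Rrm2 alone, 18 Ccnb2 alone, 19 both and 129 neither, and in APM 88, 32, 26 and 154. Most thinned cells thus held neither or only Rrm2. With counts this low, a cell without a UMI is not a cell without the transcript. In the HDM and HDM+APM libraries all 24 cells exceeded 2000 UMIs, with S phase medians of 13 in each and G2/M medians of 13.5 in each; 12 cells a library allow no comparison.

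**Figure D4:**
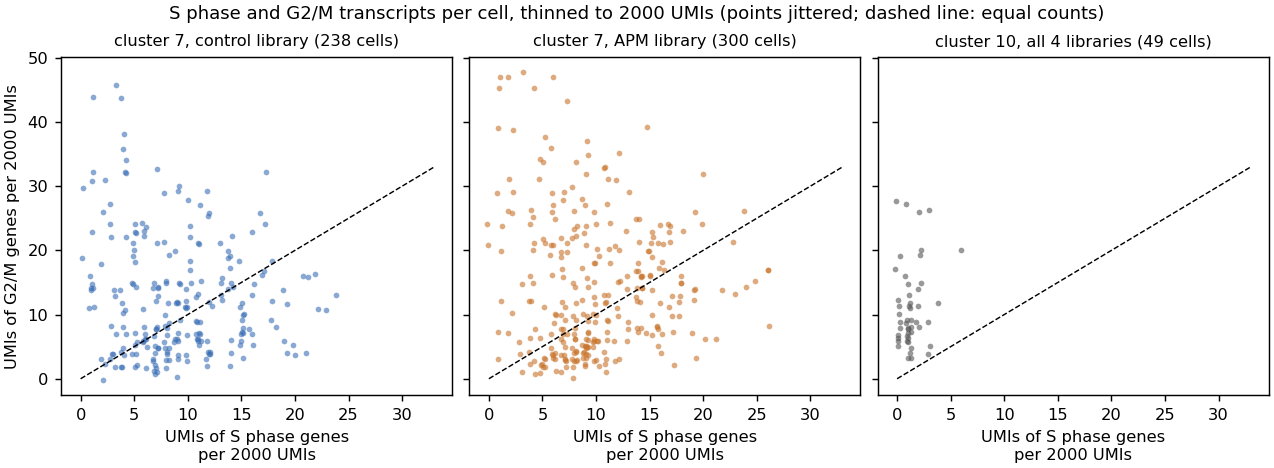
UMIs of the S phase list (x axis) and the G2/M list (y axis) in each cell after thinning to 2000 UMIs, for cluster 7 in control and in APM and for cluster 10 over the 4 libraries; points are jittered and the dashed line marks equal counts. Cells of cluster 7 spread along both axes, with medians of 8 and 11 in control and 9 and 12 in APM, and cells of cluster 10 lie near 1 on the S phase axis.

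Cluster 10, a set of 50 alveolar macrophages (9 control, 1 HDM, 39 APM, 1 HDM+APM), carried many of the mitotic but few of the S phase transcripts. The libraries were summed for this comparison because each held under 50 cells of cluster 10. S phase genes summed to 4651 CPM in cluster 7 and 608 CPM in cluster 10, beside 585 and 606 CPM in clusters 1 to 6 and 9 of control and APM. G2/M genes summed to 7117 CPM in cluster 7 and 5440.2 CPM in cluster 10, beside 1253 CPM in clusters 1 to 6 and 9 of either library. Of 8091 genes, 2017 (24.9%) were higher in cluster 7 and 969 (12%) lower. The S phase list was higher in cluster 7 for 42 of 43 genes, with a median log2 ratio of 2.21 against 0.10 for all genes; 18 of its genes had 0 UMIs in one class, and with those at their bound the median was 1.54. The G2/M list was higher for 29 of 53 genes and lower for 6 (median 0.61). After thinning, 0 of 49 cluster 10 cells held more S than G2/M UMIs.

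Rrm2 stood at 323 CPM in cluster 7 and had 0 UMIs in cluster 10, at least 15.4-fold higher when cluster 10 is set to 3 counts. The same bound was 9.59-fold for Lig1, 7.24-fold for Ccne2, 6.10-fold for Mcm5, 5.72-fold for Ezh2 (a histone methyltransferase), 5.33-fold for Hells (a chromatin remodeller) and 4.79-fold for Mcm2. Thinned Rrm2 was seen in 0 of 49 cluster 10 cells, which allows a share of cells with a UMI of up to 7.25% at this depth, beside 38.2% and 38.0% of cluster 7 cells in control and APM. Top2a was lower in cluster 10 but present, at 69.9 against 534 CPM (7.64-fold, 4.14 to 16), and Stmn1 stood at 846 against 1376 CPM. Ccnb2 ran the other way, at 573 CPM in cluster 10 and 127 CPM in cluster 7 (4.53-fold, 3.51 to 5.80). It was seen in 75.5% of thinned cluster 10 cells and in 15.5% and 19.3% of cluster 7 cells. Emp1, an epithelial membrane protein gene, stood at 343 CPM in cluster 10 and 34.8 CPM in cluster 7, and Apoe at 147 and 24.8 CPM.

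Stress and metal genes were higher in cluster 7 than in cluster 10. Of 22 Nrf2 targets 13 were higher and 0 lower (median 0.63), with Hmox1, the haem-degrading enzyme, at 1348 against 126 CPM (10.7-fold, 6.77 to 18.1). Hmox1 also differed between control and APM within cluster 7, and the APM library supplies 39 of the 50 cluster 10 cells. In the APM library alone, compared after the data were seen, Hmox1 stood at 1018 against 98.2 CPM, Ccnb2 at 139 against 616 CPM and Rrm2 at 299.9 CPM against 0 UMIs. There 40 of 41 S phase genes were higher in cluster 7, beside 25.3% of all genes, and 27 of 51 G2/M genes were higher and 3 lower. Metallothionein and metal transport genes were higher for 8 of 12 genes over the summed libraries, beside 24.9% of all genes. Cytosolic ribosomal protein genes were lower for 7 of 79 (median −0.30), a smaller share than the 12% of all genes. Cluster 10 was 0.232% of alveolar macrophages in control and 1.05% in APM, a ratio of 4.55 (2.17 to 10.7).

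Between APM and control, few cell cycle genes of cluster 7 were called. Of 7822 genes, 198 (2.53%) were called higher and 304 (3.89%) lower in APM, around a median log2 ratio of −0.02. Of 43 S phase genes 3 were higher and 0 lower (median 0.11), and of 52 G2/M genes 0 were called either way (median 0.11). Top2a had a ratio of 0.998 (0.888 to 1.12) and Rrm2 of 0.955 (0.821 to 1.11). Stmn1 was higher in APM at 1584 against 1177 CPM, a ratio of 1.35 (1.25 to 1.45), which stays under the 1.5-fold call. Cdkn1b (p27, an inhibitor of cyclin-dependent kinases) was called higher, at 59.7 against 23.5 CPM (2.54-fold, 1.59 to 4.18), beside 47.0 against 25.9 CPM in the comparison clusters.

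The largest differences in cluster 7 were in genes typical of other cell types, red blood cells and epithelium. The origin of these transcripts in the macrophages was not tested. Hbb-bs, a haemoglobin chain, stood at 2160.0 CPM in APM and 114 CPM in control (19.0-fold, 15.8 to 23), and at 2707 and 131 CPM in clusters 1 to 6 and 9. Hba-a1 and Hba-a2, near-identical copies whose split is uncertain, stood at 906 against 45.1 CPM and 686 against 38.5 CPM. After thinning, Hbb-bs had a UMI in 98.7% of the APM and 22.3% of the control cells of cluster 7 (100% and 39.0% unthinned), and in 98.4% and 22.0% of the comparison cells (99.3% and 37.9% unthinned). Airway and alveolar epithelial transcripts followed: Scgb1a1, the club cell secretory protein, stood at 1059 against 180.5 CPM in cluster 7 and 1171 against 169 CPM in the comparison clusters, Sftpc, a surfactant protein, at 213 against 25.4 CPM and 173 against 26.3 CPM, and Bpifa1 at 432 against 91.2 CPM in cluster 7. Summed, the red blood cell genes reached 4078 against 241 CPM in cluster 7 and 5322 against 279.8 CPM in the comparison clusters, and the epithelial markers 2244 against 505 CPM and 2390.0 against 425 CPM. Both classes of macrophage therefore carried similar amounts in each library. The part of these transcripts in the other differences between the libraries was not tested; they add to the APM totals by which CPM are scaled.

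Some oxidative stress and metal genes were lower in APM, in cluster 7 and in the comparison clusters. The comparison clusters had another make-up in each library, as given above. In their summed values, library and make-up cannot be told apart. Of 22 Nrf2 targets 6 were lower in cluster 7 (median −0.34), and 6 of 23 in the comparison clusters (median −0.40). The shares of all genes called lower were 3.89% and 0.503%. Of 12 metallothionein and metal transport genes 4 were lower and 1 higher in cluster 7 (median −0.33), and 4 and 0 in the comparison clusters (median −0.40). Sqstm1, the selective autophagy receptor p62, stood at 198 against 456 CPM in cluster 7 (2.3-fold lower, 1.97 to 2.70) and 389 against 708 CPM elsewhere. Hmox1 stood at 1018 against 1884 CPM and 1347 against 2266 CPM, and Srxn1, which repairs oxidized peroxiredoxins, at 58.0 against 122 CPM and 73.4 against 126 CPM. Mt2, a metal-binding protein, stood at 2044 against 4145 CPM in cluster 7 and 2279 against 4259 CPM elsewhere. Cxcl2, a neutrophil chemokine, stood at 31.5 against 79.9 CPM and 45.7 against 75 CPM. Cebpb, a transcription factor of myeloid cells, went the other way in both, at 1702 against 855 CPM in cluster 7 and 1775 against 712 CPM elsewhere. In the comparison clusters 80 of 10738 genes (0.745%) were called higher and 54 (0.503%) lower, from 9361976 UMIs in APM and 13846777 in control against 1206933 and 1063849 in cluster 7, so the numbers called in the 2 classes cannot be set against each other.

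Hspa1a, an inducible heat shock protein with the near-identical copy Hspa1b, was the gene lowest in APM in cluster 7 and rested partly on 1 cell. It stood at 79.5 against 299.9 CPM in cluster 7 (3.77-fold lower, 2.99 to 4.79) and at 218 against 229 CPM in the comparison clusters. In control, 107 of its 319 UMIs lay in 1 cell, and 199 CPM remained without them. After thinning, a UMI of Hspa1a was present in 18.1% of the control and 11.7% of the APM cells of cluster 7 (27.8% and 15.4% unthinned), and in 15.4% and 11.4% of the comparison cells (24.9% and 14.6% unthinned). Hspa1b stood at 46.4 against 112 CPM in cluster 7. Cholesterol synthesis genes were lower for 5 of 21 in cluster 7 (median −0.37), beside 3.89% of all genes. In the comparison clusters they were lower for 0 of 23 (median −0.28), beside 0.503% of all genes. The medians were near each other, and the numbers called cannot be set against each other at such unlike depths. The make-up of the comparison clusters also differed between the libraries, and the contrast was not tested.

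**Figure D5:**
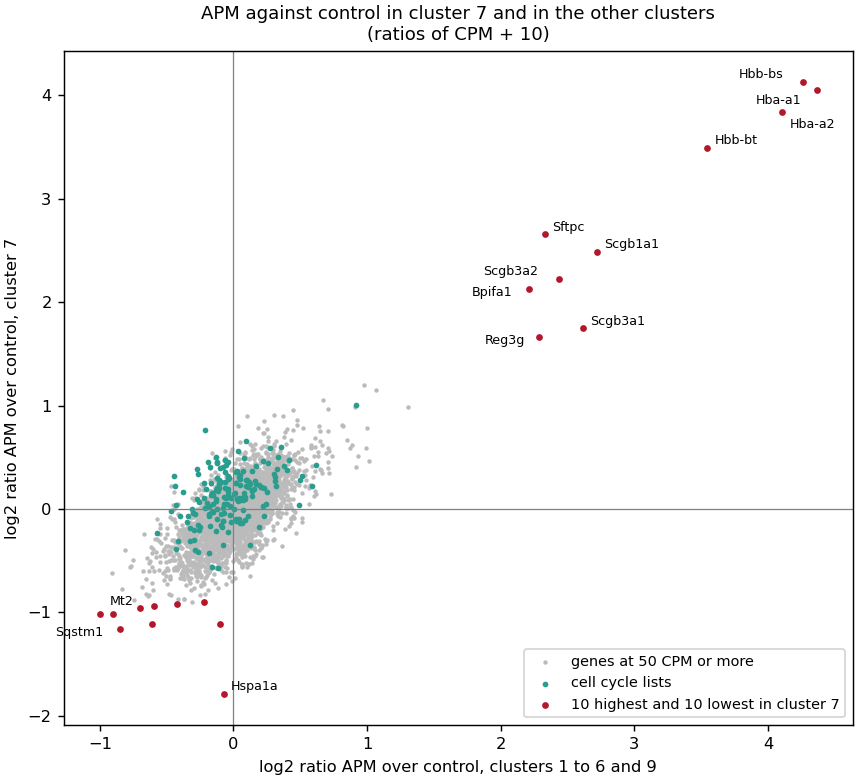
Log2 ratio of APM over control, with 10 CPM added to each side, in clusters 1 to 6 and 9 (x axis) and in cluster 7 (y axis), for genes at 50 CPM or more; cell cycle genes and the 10 highest and 10 lowest genes of cluster 7 are colored. Haemoglobin genes lie near 4 on both axes, cell cycle genes near 0, and Hspa1a at −1.79 in cluster 7 and −0.07 in the other clusters.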

How the data were processed

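Single-cell RNA-seq UMI counts were analysed as deposited by the authors, not normalized, as 1 matrix of 13838 genes by 9925 cells, with a table naming each cell's library, coarse type and refined cluster. Cell Ranger 2.2.0, Seurat 2.3.4 and the build mm10 are named per the submitters' processing notes; cell filters are not given in the sources used here. Deposited cells held 496 to 9998 UMIs, and library totals were 15170333 (control), 1920648 (HDM), 11355310 (APM) and 5197132 (HDM+APM) UMIs. Immunoglobulin genes are not reported here.

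For each library, a class's UMIs were added up per gene and expressed per 1000000 (CPM). Genes with at least 20 UMIs over both classes were compared, with a pseudocount of 10 CPM and a call at 1.5-fold. The comparison class was alveolar macrophage clusters 1 to 6 and 9, and cluster 10 was summed over the 4 libraries. CPM ratios have exact conditional binomial intervals, levels exact Poisson intervals and shares exact Clopper-Pearson intervals, all at 95% and for counting error only. A class with 0 UMIs was set to 3 counts for a bound. With 1 library per group no test was made. Phase counts used cells thinned to 2000 UMIs. Intervals and calls were tried on simulated Poisson counts, the model that the intervals assume. Clumping of UMIs in single cells was not simulated.

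Genes named were the 15 highest and 10 lowest of cluster 7 over the comparison class, taking the weaker of the 2 libraries, with at least 50 CPM in either class and 50 UMIs in each library, the 10 highest and 10 lowest of each other comparison, up to 4 members per list with the largest absolute ratio, and the 3 markers. H2afz, Hist2h3c1, Itgax, Marco and Pparg were named as list members after their values were seen. The members and the 47 gene lists were chosen with earlier results of these data known. Promoters are from RefSeq (GRCm38.p6) and gene positions from GENCODE on GRCm38, the assembly mm10 names. Alternatives covered the pseudocount, UMI minimum, scaling, averaging over cells, thinning, the deepest cells, the comparison clusters, free RNA and the fold called. Python 3.11.15, numpy 2.4.6, pandas 2.3.3 and scipy 1.17.1 were used.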

Additional observations from a re-analysis of the deposited data

Results flagged for a closer look

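Among 334 named genes, 4 differed from clusters 1 to 6 and 9 in opposite directions in the control and APM libraries, each with counting intervals that excluded equality in both. The difference between libraries was not tested, since each group is 1 pool. Hspa1a was 1.31 times the comparison level in cluster 7 of control and 0.365 times in APM; without the single control cell that held 107 of its 319 UMIs, the control level of 299.9 CPM became 199 CPM, under the 229 CPM of the comparison clusters. Scgb3a1, a secretory protein of airway epithelium, was at 1.68 times in control and 0.822 times in APM. Chil3 was at 1.06 and 0.941 times, and mt-Nd1, a mitochondrial respiratory chain gene, at 0.941 and 1.05 times, both small.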

How the results depend on the processing

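No paired analysis was possible because each group is 1 pooled library. Of the alternatives computed for named genes, 1478 of 1659 (cluster 7 over the comparison clusters, control), 1463 of 1621 (the same, APM), 1463 of 1489 (APM over control) and 1435 of 1445 (cluster 7 over cluster 10) stayed within counting error, and 3 values reversed: Hsp90aa1 in control with comparison clusters weighted equally (log2 ratio −0.35), and, against cluster 10, Maff after thinning (0.12) and Cd14 without the deepest 5% of cells (0.40). A gene with 0 UMIs in a class, such as Rrm2 in cluster 10, has no finite interval. Such a gene was counted as within counting error unless it reversed, so its agreement carries no weight. Counts of called genes moved with the pseudocount and the fold called. With a pseudocount of 1 CPM, cluster 7 over the comparison clusters gave 1996 higher and 931 lower in control (S phase and G2/M medians 2.93 and 3.01) and 1675 and 941 in APM (3.09 and 3.37), and APM over control gave 498 and 770. With 50 CPM these were 335 and 39 (0.86 and 0.93), 346 and 33 (1.06 and 1.00), and 20 and 16; cluster 7 over cluster 10 gave 487 and 274. A 2-fold call gave 410 and 14 in control, 419 and 8 in APM, 22 and 16 for APM over control, and 1036 and 205 against cluster 10. A minimum of 100 UMIs, which leaves fewer genes to call, gave 65 and 86 for APM over control and 705 and 386 against cluster 10. Thinning gave 428 lower in control, 382 lower in APM and 312 higher for APM over control, and median scaling 310 lower in control; the cause was not tested. The share of cluster 7 in alveolar macrophages became 10.4% in APM among cells with at least 2000 UMIs, and 20% in HDM and 26.1% in HDM+APM without cluster 8. Depth limits the HDM libraries, with 58475 and 87443 UMIs in cluster 7, and cluster 10.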

Other observations

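Genes outside all lists also stood apart in cluster 7, and these were chosen after their values were seen. Lockd, a long noncoding RNA next to Cdkn1b, stood at 123 against 5.63 CPM in control and 157 against 7.48 CPM in APM. Dnajc9, a histone co-chaperone, stood at 165 against 19.0 CPM and 156 against 17.4 CPM. Ube2t, a ubiquitin carrier of the Fanconi anaemia repair pathway, stood at 79.9 against 7.22 CPM in control and 108 against 8.12 CPM in APM. Ptma, prothymosin alpha, stood at 4469 against 1391 CPM and 4794 against 1476 CPM. Among genes lower in both libraries were Cat (catalase), at 244 against 443 CPM and 182 against 316 CPM, Tyrobp, an adaptor of activating myeloid receptors, at 2705 against 4261 CPM and 2313 against 3733 CPM, and Prdx5, a peroxiredoxin, at 625 against 982 CPM and 583 against 921 CPM.

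The 12 cluster 7 cells of each HDM library are given as levels of a few genes, chosen after their values were seen. Chil3 stood at 42497 CPM in HDM and 32147 CPM in HDM+APM, beside 7059 CPM in control and 6638 CPM in APM, and at 27401 and 30730 CPM in clusters 1 to 6 and 9 of the HDM libraries. Retnla, a secreted marker of alternatively activated macrophages, had 0 UMIs in the cluster in control and in APM, stood at 85.5 CPM in HDM (5 UMIs in 3 of 12 cells), and reached 1235 CPM in HDM+APM with a UMI in 12 of 12 cells. The comparison clusters showed the same order, at 89.1 CPM in HDM and 1139 CPM in HDM+APM. Ccl17, a chemokine for T helper cells, stood at 3044 CPM in cluster 7 of HDM, but 92 of its 178 UMIs lay in 1 of 12 cells, and in APM 25 of its 32 UMIs lay in 1 of 306 cells. In HDM+APM it stood at 240.2 CPM. Ccl24, an eosinophil chemokine, had 16 UMIs in HDM, 12 of them in 1 cell, and 1 UMI in HDM+APM. Arg1, arginase, had 1 UMI in HDM and 2 in HDM+APM. Summed T and NK cell markers reached 359 CPM in the cluster in HDM and 57.2 CPM in HDM+APM, and their part in these levels was not tested.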
